A study of Mus musculus with 8 samples.

Results

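The 121 genes described here carry the symbols of processed pseudogenes of cytosolic ribosomal proteins, although the annotation has 4 of them as protein-coding, and were taken as every row whose symbol is that of an Rpl or Rps gene followed by -ps and an optional number. Of 261 rows with such a symbol, among 46477 rows in all, 121 had a mean of at least 1 FPKM over the 8 libraries, and those are the members. FPKM counts sequenced fragments per kilobase of a gene, scaled to the size of the library. The members were thus chosen by their mean level, which is given as a description, while differences between libraries were not used in the choice. The 121 members are named after 50 parent genes, all of which have a row of their own.

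Ribosomal proteins build the small (Rps) and large (Rpl) subunits of the cytosolic ribosome, and their mRNAs are short and among the most abundant in growing cells. A processed pseudogene arises when an mRNA is reverse transcribed and inserted elsewhere in the genome, so that it has the spliced sequence of its parent, no introns and usually no promoter of its own. Ribosomal protein mRNAs have left more such copies in mammalian genomes than most genes. A read from a parent's spliced mRNA can fit a young copy base for base, and a short-read library alone cannot always say which of them it came from.

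RNA was measured in B16-F10 cells, a mouse melanoma line, after 24 hours on the extracellular matrix that smooth muscle cells had left behind on being lysed. Before that, siRNA had acted on these muscle cells for 72 hours, followed by another 72 hours in one of 2 media, TCM or SFM. In each medium the siRNA was siKLF4-siFN, siFN, siKLF4 or siNT. The siRNA and the medium were thus applied to the matrix-making cells and not to the melanoma cells. The series title speaks of media conditioned by B16-F10 tumor cells, which TCM is taken to stand for, and SFM is not spelled out. There was 1 library for each of the 8 conditions, so no condition has a replicate.

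The libraries were of the labelled cell type: 9 of 10 melanocyte markers averaged at least 1 FPKM, their summed level ran from 480 to 747 FPKM, and of 10 smooth muscle markers only Des did, while Acta2 and Myocd stood at 0 in all libraries. The members held between 10.5% (SFM siKLF4) and 15.2% (SFM siKLF4-siFN) of a library's summed FPKM, and their 50 parents between 1.57% and 1.99%. The FPKM file gives no read counts. Steps between low values of genes with a single transcript put the libraries at very roughly 11600000 to 23100000 reads, with only 23.6% to 29.6% of those values within 0.05 of a whole read. At that depth 1 FPKM over the members' median length of 483 nucleotides is 5.603 to 11.2 reads, so the lowest members rest on few reads.

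How closely the copies follow their parents is visible in the coding sequence itself. The next stretches, 81 bases each, come from the GENCODE M21 transcripts of GRCm38 (the same assembly as mm10) and are shown from the 5 families that hold the members called in a test further on. They are written 5′ to 3′ on the strand of the gene, a parent first and its copies below it, and capitals mark each base at which a copy departs from its parent. Positions are counted from 1 at the A of the parent's start codon.

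In the Rpl10 family, bases 406 to 486 are shown, since Rpl10-ps3 and Rpl10-ps1 are the same letters at very different levels.
Rpl10: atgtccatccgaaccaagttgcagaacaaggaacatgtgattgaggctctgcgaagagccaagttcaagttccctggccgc
Rpl10-ps3: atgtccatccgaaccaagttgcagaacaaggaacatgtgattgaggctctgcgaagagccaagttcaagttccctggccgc
Rpl10-ps1: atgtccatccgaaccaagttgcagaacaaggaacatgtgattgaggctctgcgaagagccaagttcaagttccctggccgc
Rpl10-ps6: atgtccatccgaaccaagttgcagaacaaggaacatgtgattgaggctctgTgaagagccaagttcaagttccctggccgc
Rpl10-ps2: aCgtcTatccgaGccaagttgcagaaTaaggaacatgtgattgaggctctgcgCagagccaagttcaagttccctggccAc

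These stretches lie at chr9:50344456-50344536 (minus strand) for Rpl10-ps3, at chr2:105554360-105554440 (minus strand) for Rpl10-ps1, at chr19:37295311-37295391 (minus strand) for Rpl10-ps6 and at chr8:106927928-106928008 (minus strand) for Rpl10-ps2. C457T in Rpl10-ps6 turns the codon cga into the stop codon tga, and the copy's frame ends after 152 of 214 codons. Rpl10-ps2 has 6 substitutions in the stretch and 21 over the coding sequence, yet keeps all 214 codons open.

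In the Rps12 family, the first 81 coding bases are shown for the parent, its leading copy Rps12-ps3 and Rps12-ps9, which departs from the parent at C78T.
Rps12: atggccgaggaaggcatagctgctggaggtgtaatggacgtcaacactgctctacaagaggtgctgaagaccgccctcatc
Rps12-ps3: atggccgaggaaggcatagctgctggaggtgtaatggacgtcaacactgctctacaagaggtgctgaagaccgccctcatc
Rps12-ps9: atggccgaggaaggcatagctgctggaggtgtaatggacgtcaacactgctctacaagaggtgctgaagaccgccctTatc

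In the Rps23 family, Rps23-ps1 equals the parent wherever it aligns, and Rps23-ps2 (chr8:3584150-3584230, minus strand) carries C57T, 1 of its 2 differences.
Rps23: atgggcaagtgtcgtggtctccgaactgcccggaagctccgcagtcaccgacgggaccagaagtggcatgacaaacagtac
Rps23-ps1: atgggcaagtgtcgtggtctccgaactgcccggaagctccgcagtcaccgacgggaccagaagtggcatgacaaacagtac
Rps23-ps2: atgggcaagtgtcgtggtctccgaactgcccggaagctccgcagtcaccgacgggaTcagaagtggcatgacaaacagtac

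In the Rps15a family, bases 97 to 177 are shown because T150C stands in all 5 member copies, and G151T puts a stop codon into Rps15a-ps3 after 50 of 130 codons.
Rps15a: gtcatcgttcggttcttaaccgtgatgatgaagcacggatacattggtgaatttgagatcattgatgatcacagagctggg
Rps15a-ps7: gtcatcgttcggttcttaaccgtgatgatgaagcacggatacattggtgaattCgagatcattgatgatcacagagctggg
Rps15a-ps5: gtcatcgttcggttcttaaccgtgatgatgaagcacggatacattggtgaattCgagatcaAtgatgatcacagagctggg
Rps15a-ps6: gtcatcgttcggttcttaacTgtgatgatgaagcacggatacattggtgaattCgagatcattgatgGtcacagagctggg
Rps15a-ps3: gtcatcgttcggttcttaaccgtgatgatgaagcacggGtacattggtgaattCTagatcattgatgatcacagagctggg
Rps15a-ps4: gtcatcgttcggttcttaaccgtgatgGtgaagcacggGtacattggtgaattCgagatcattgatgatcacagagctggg

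In the Rpl31 family, the largest with 11 members, bases 52 to 132 are shown for the parent, an exact copy and a pair of copies that have drifted.
Rpl31: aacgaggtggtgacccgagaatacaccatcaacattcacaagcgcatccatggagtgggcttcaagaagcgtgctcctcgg
Rpl31-ps8: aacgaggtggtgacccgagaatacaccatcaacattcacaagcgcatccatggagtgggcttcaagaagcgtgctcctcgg
Rpl31-ps10: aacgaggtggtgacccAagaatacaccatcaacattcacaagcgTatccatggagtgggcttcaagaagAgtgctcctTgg
Rpl31-ps22: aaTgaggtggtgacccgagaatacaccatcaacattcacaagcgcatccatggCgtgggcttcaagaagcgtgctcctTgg

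The level of a copy went with how little it differed from its parent. Over the aligned coding sequence, 13 members had no difference from the parent, and their median of the mean level was 673 FPKM, with 12 of the 13 at 100 FPKM or more. The median was 122 FPKM in the 24 members with 1 or 2 differences, 50.4 FPKM in 21 members with 3 to 5, 3.14 FPKM in 21 members with 6 to 10, and 2.70 FPKM in 41 members with over 10, none of which reached 100 FPKM. Spearman's rho between percent identity and mean level was 0.70 over 120 aligned members, which share reads and whose level chose them, so it is given without a test. Among all 156 aligned copies with over 10 differences, 115 stayed under a mean of 1 FPKM, whereas none of the 13 copies without a difference and none of the 24 with 1 or 2 did.

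**Figure D1:**
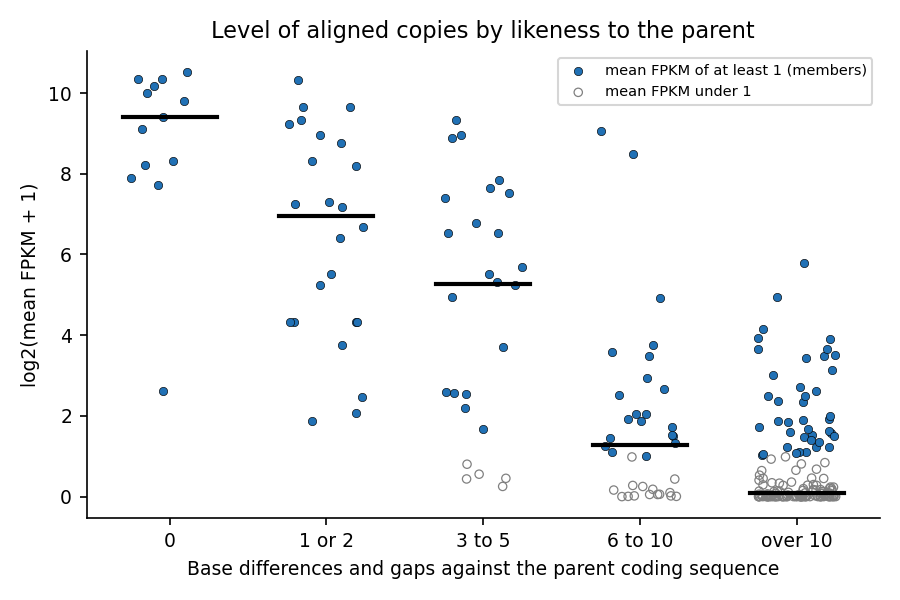
Each point is a copy aligned to its parent, placed by the number of base differences and gaps (horizontal classes) and by log2(mean FPKM + 1) over the 8 libraries (vertical), with members filled and copies under a mean of 1 FPKM open, and bars at the median of all copies of a class. The class without a difference has its median member at 673 FPKM and 1 low copy, Rpl10-ps1, at 5.13 FPKM.

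That low copy is the plainest exception. Rpl10-ps1 matches all 645 coding bases of Rpl10 and lies within an intron of another gene on its own strand, as 13 members do, yet it averaged 5.13 FPKM. Rpl10-ps3, with the same coding letters and no other gene at its place, averaged 1469.65 FPKM. Rpl10 encodes a large-subunit protein that is among the last to join the ribosome, and its own row averaged 19.6 FPKM.

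The 10 members with the highest means held 53.2% of the members' summed level. Rpl10-ps3 led, and its 8 libraries ran from 1040.1 FPKM (TCM siFN) to 2169 FPKM (SFM siKLF4-siFN). Rps12-ps3, a copy of a small-subunit gene, averaged 1301 FPKM and ran from 934 to 1741 FPKM. Rpl31-ps8 and Rpl19-ps11, copies of large-subunit genes, averaged 1292 and 1281 FPKM. Rpl27-ps3 averaged 1155 FPKM and Rps6-ps4, a copy of the small-subunit protein that S6 kinases phosphorylate, 1026 FPKM.

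The remaining 4 of the 10 were Rps23-ps1 (899 FPKM), Rpl23a-ps3 (806 FPKM), Rpl3-ps1 (805 FPKM) and Rps16-ps2 (673 FPKM). Rps23 sits at the decoding centre of the small subunit, Rpl3 near the peptidyl transferase centre of the large one, and Rpl23a at the exit of the nascent chain. Over all members the median was 11.1 FPKM, with 35 members at 100 FPKM or more and 48 under 5 FPKM. The median of the 6917 genes with a mean of at least 1 FPKM was 3.33 FPKM.

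Set beside their parents, copies lay on both sides, 23 of them more than 10 times above. The row of the copy was above that of its parent in all 8 libraries for 47 members and below it in all 8 for 61 members. All 35 members of at least 100 FPKM had a higher mean than their parent, by 1.28 to 457 times. The extreme was Rps12-ps3, at 1301 FPKM against 2.85 FPKM for Rps12. Other wide gaps were those of Rpl23a-ps3, at 806 FPKM against 5.12 FPKM for Rpl23a, and of Rpl31-ps8, at 1292 FPKM against 10.1 FPKM for Rpl31. At the other end, Rpl32-ps had 1.13 FPKM against 216 FPKM for Rpl32, and 36 members were more than 10 times below their parent.

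**Figure D2:**
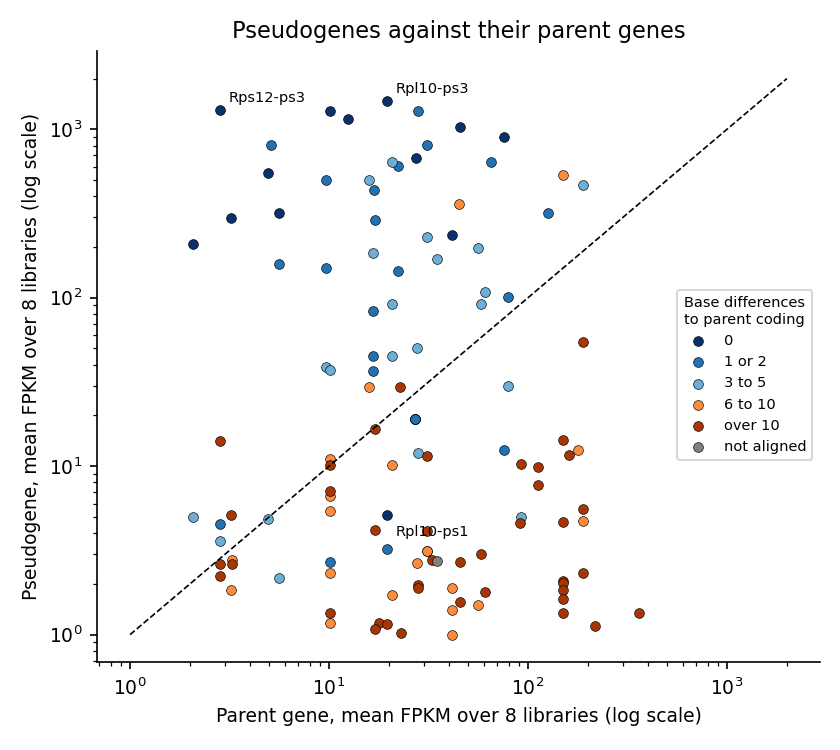
Mean FPKM over the 8 libraries of each member (vertical, log scale) against that of its parent gene (horizontal, log scale), coloured by the number of base differences to the parent's coding sequence, with the dashed line at equal levels. Exact copies sit above the line, as Rps12-ps3 at 1301 FPKM against 2.85 FPKM for its parent, except Rpl10-ps1 at 5.13 FPKM.

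The parents with a high copy had a lower median than the others, with a wide spread. The median of the 33 parents with a member of at least 100 FPKM was 22.2 FPKM (highest 188 FPKM, for Rps2), that of the 17 parents whose members were all under 100 FPKM was 58.2 FPKM, and that of the 29 listed ribosomal protein genes with no member was 52.4 FPKM. In 36 of the 50 families the leading copy was above the parent. In 19 of the 30 families with several members, the leading copy was at least 10 times the next, as in Rpl10, Rps12 and Rps23.

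Sequence shared between copies was measured in windows of 50 bases, since the read length is not given in the sources used here. In the median member 27.3% of windows occurred in no other annotated gene and 56.9% occurred in a transcript of the parent. Members of at least 100 FPKM had 3.89% of windows to themselves in the median, against 45.3% in the others, and 24 members had none. For 21 of the 50 parents, no window of the coding sequence was found in the parent alone. How the authors' counting placed shared reads is not stated in the labels, and how many of a copy's reads came from its parent's mRNA was not tested.

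The members with the largest share of windows to themselves were Rpl32-ps (91.5%, at 1.13 FPKM), Rpl31-ps22 (91.0%, at 10.2 FPKM) and Rpl13a-ps1 (85.8%, at 2.997 FPKM). All 3 were low or moderate in level. Among the members without a window of their own, Rps12-ps3, Rpl31-ps8 and Rpl27-ps3 had the highest levels, at 1301, 1292 and 1155 FPKM.

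Copies that could not be told apart at all carry the same numbers. Rpl35a-ps2, Rpl35a-ps3, Rpl35a-ps4 and Rpl35a-ps6 have 1 sequence of 333 bases among them and 1 set of values, 19.0 FPKM on average. Rps19-ps1 and Rps19-ps2 likewise share a sequence of 438 bases and a mean of 3.14 FPKM, so the 121 members hold 117 distinct rows. Of the 968 member values none was exactly 0, but 2 lay under 0.001 FPKM, far under the value of a single read. Over the whole table, 3324 values lay above 0 and under 0.0001 FPKM.

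A symbol did not always go with shared sequence. Rpl18-ps1 (2.74 FPKM) aligned to less than 50% of the coding sequence of Rpl18 and shared no window with it. Rpl36a-ps3 (5.16 FPKM) was 87.5% identical to Rpl36a and shared no window with it either. Comparisons with the parent by symbol are therefore weak for these members.

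All 121 members matched the annotation, 112 as processed pseudogenes, 5 as transcribed processed pseudogenes and 4 as protein-coding genes (Rpl10-ps3, Rps12-ps3, Rpl9-ps6 and Rpl36a-ps1). They lie on 20 chromosomes, with 13 on X. No other annotated gene overlapped 74 of them, 30 overlapped a gene on the opposite strand only, and 4 shared an exon with another gene on their own strand. Those 4, Rpl19-ps1, Rpl19-ps4, Rpl19-ps11 and Rpl19-ps12, each contain an annotated miRNA gene. The parent's reading frame was open over at least 95% of its codons in 82 members, with a median of 29.5 FPKM, and was not in 38 aligned members, with a median of 4.76 FPKM. A high level was also found in a row without an open frame: Rps15a-ps7 averaged 640 FPKM with its frame ending after 37 of 130 codons. Of its windows 60.1% occurred in Rps15a, and how many of its reads came from the parent was not tested.

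The first question of the design is whether levels differed between cells on matrix made in TCM and in SFM. With limma on log2(FPKM + 1), where libraries that share a medium stand in for replicates, 0 of 121 members passed an adjusted p of 0.05, as did 0 of all 6917 genes tested (0%). At an unadjusted p of 0.05, 30 members differed, 25 of them lower in TCM, while 6.71% of all genes did, 3.2% lower and 3.51% higher. Members share reads, so they are not separate results. With FPKM summed over each parent and its copies, 4 of 50 families differed at that unadjusted p in limma, in both directions. Rpl34 (-0.85) and Rps24 (-0.35) were lower in TCM, and Rpl36a (0.36) and Rpl39 (0.42) were higher. No family and 0% of all 6796 rows of that fit passed the adjusted threshold, and the share of rows at the unadjusted p was not computed. The median member difference, TCM minus SFM, was -0.17 on the log2 scale, against 0.02 over all genes, and 24 members were lower in TCM with every siRNA, as were 4.89% of all genes. The sign was not shared by all siRNAs. The member median was -0.51 with siKLF4-siFN and -0.36 with siFN, but -0.02 with siNT and 0.18 with siKLF4. Over all genes these medians were -0.06, 0.02, -0.01 and 0.08.

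Rps12-ps10 and Rps12-ps9 were among the 3 members with the smallest p for lower levels in TCM. Rps12-ps9 had 1.74 to 3.36 FPKM in TCM and 4.75 to 11.1 FPKM in SFM (-1.22 ± 0.25, SE; limma adjusted p = 0.352). Rps12-ps10 had 2.23 to 2.83 FPKM in TCM and 4.03 to 5.50 FPKM in SFM (-0.68 ± 0.13, SE; limma adjusted p = 0.295). The Rps12 row itself was also lower in every TCM library, with 1.26 to 1.99 FPKM against 2.72 to 5.76 FPKM in SFM, while the leading copy Rps12-ps3 overlapped between media.

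Toward higher levels in TCM, Rpl39-ps and Rpl36a-ps2 were among the 3 members with the smallest p. Rpl36a-ps2, an exact copy at 300.3 to 346 FPKM in TCM and 228 to 299 FPKM in SFM, did not overlap (0.36 ± 0.12, SE; limma adjusted p = 0.603). Rpl39-ps had 674 to 808 FPKM in TCM and 466 to 663 FPKM in SFM, again without overlap (0.44 ± 0.14, SE; limma adjusted p = 0.603).

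For siKLF4, 0 of 121 members and 0 of all genes (0%) passed the adjusted threshold in limma, and 3 members did at an unadjusted p of 0.05, against 1.21% of all genes, of which 0.448% lower with siKLF4. The smallest p was that of Rpl31-ps10, which was higher with siKLF4 in all 4 matched pairs: 5.32 against 4.31 FPKM (TCM, with and without siKLF4, siFN in both), 7.27 against 2.77 FPKM (TCM siKLF4 against TCM siNT), 13.6 against 6.32 FPKM (SFM, siFN in both) and 8.77 against 5.08 FPKM (SFM siKLF4 against SFM siNT). The difference was 0.77 ± 0.17 (SE; limma adjusted p = 0.999998). Rpl10-ps1 followed at 1.18 ± 0.41 and then Rpl10-ps2 at 0.28 ± 0.19. The lowest p-values toward lower levels were those of Rps24-ps3 (-0.42 ± 0.16), Rpl17-ps8 (-0.46 ± 0.21) and Rpl17-ps5 (-0.27 ± 0.14), and none of these differences passed.

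For siFN, again 0 of 121 members and 0 of all genes (0%) passed in limma. At an unadjusted p of 0.05, 7 members differed, all higher with siFN, against 1.21% of all genes, 0.593% higher and 0.622% lower. With FPKM summed over parent and copies, 0 of 50 families did. The median member difference was 0.17 and that of all genes -0.02 on the log2 scale, with 21 members and 56.4% of all genes below 0. Its sign differed between media. In SFM the member median was 0.54 for siKLF4-siFN against siKLF4 and 0.24 for siFN against siNT, but in TCM it was -0.08 and -0.03. Over all genes these medians were 0.07, -0.03, -0.07 and -0.01. A further count is that 15 members were higher with siFN in all 4 matched pairs, as were 1.72% of all genes. Rpl13a-ps1 had the smallest p, with 3.04, 2.78, 4.55 and 4.05 FPKM in the 4 libraries with siFN and 2.26, 2.23, 2.39 and 2.68 FPKM in the 4 without it. These sets did not overlap (0.43 ± 0.11, SE; limma adjusted p = 0.993). Rps13-ps4 (0.29 ± 0.09) and Rpl12-ps1 (0.56 ± 0.21) came next, and Rpl36-ps3 (-0.38 ± 0.23), Rps12-ps19 (-0.30 ± 0.22) and Rps19-ps1 (-0.20 ± 0.16) had the smallest p in the other direction. Rpl12-ps1 averaged 1.17 FPKM and reached a mean of 1 FPKM only through its libraries with siFN, so the choice of this member favours a positive value.

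For 5 members the siFN difference was not the same in both media. The interaction is the siFN difference in TCM minus that in SFM, and these were 5 of 121 members (4.13%), against 7.17% of all genes, so members passed no more often than genes at large. All 5 estimates were negative, a direction in which 3.34% of all genes passed, beside 3.83% in the other. At an unadjusted p of 0.05, 33 members differed, all negative, against 33.6% of all genes, 17.5% negative and 16.1% positive. Of all members 106 had a negative estimate, as did 54.4% of all genes, and the median was -0.45 for members and -0.06 over all genes. Among 78 ribosomal protein genes tested, 1 passed (Fau, chosen after its values were seen), and their median was -0.38. The 94 other genes of at least 1 FPKM with a symbol ending in -ps had a median of 0.33, with 4 called.

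Rps12-ps23 had 9.02 FPKM with siKLF4-siFN, 8.78 with siFN, 9.87 with siKLF4 and 11.1 with siNT in TCM, and 23.9 with siKLF4-siFN, 23.2 with siFN, 14.1 with siKLF4 and 13.0 with siNT in SFM. Both siFN libraries were thus the highest of the SFM libraries and the lowest of the TCM libraries. The interaction was -0.97 ± 0.20 (SE; limma adjusted p = 0.0432). This copy has 19 differences from Rps12 and 6.80% of its windows in it, with 14.2% found nowhere else and the rest shared with other copies. The parent's own estimate was -0.79 ± 0.24 (SE; limma adjusted p = 0.0836).

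Rps23-ps2 had 10.3 FPKM with siKLF4-siFN, 8.74 with siFN, 13.5 with siKLF4 and 10.8 with siNT in TCM, and 21.3 with siKLF4-siFN, 15.98 with siFN, 9.18 with siKLF4 and 10.4 with siNT in SFM. The pattern was that of Rps12-ps23, with an interaction of -1.17 ± 0.24 (SE; limma adjusted p = 0.0444). Its parent Rps23 did not follow it, at -0.04 ± 0.36 (SE; limma adjusted p = 0.944), and SFM siKLF4-siFN was the highest library of the copy but the lowest of the parent, at 50.2 FPKM. None of its windows was its own, and an exon of C330021F23Rik lies opposite it, so without a stated strand setting their reads cannot be told apart.

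Rpl31-ps22 had 10.4 FPKM with siKLF4-siFN, 8.79 with siFN, 10.9 with siKLF4 and 9.51 with siNT in TCM, and 14.2 with siKLF4-siFN, 12.7 with siFN, 7.78 with siKLF4 and 7.03 with siNT in SFM. Here the siFN libraries stood apart in SFM and overlapped the others in TCM, and the interaction was -0.86 ± 0.18 (SE; limma adjusted p = 0.0446). Of its windows 91.0% were found nowhere else, the highest share among the 5 called members. Rpl31 itself was flat, from 8.68 to 10.7 FPKM, with an estimate of 0.06 ± 0.20 (SE; limma adjusted p = 0.861).

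Rpl10-ps3 had 1099 FPKM with siKLF4-siFN, 1040.1 with siFN, 1231 with siKLF4 and 1582 with siNT in TCM, and 2169 with siKLF4-siFN, 2071 with siFN, 1090.25 with siKLF4 and 1475 with siNT in SFM. The interaction was -1.12 ± 0.25 (SE; limma adjusted p = 0.0480). Rpl10 was parallel, with 14.9 to 19.2 FPKM in TCM and 16.8 to 26.1 FPKM in SFM, an estimate of -0.74 ± 0.22 (SE; limma adjusted p = 0.0799) and a Pearson correlation of 0.96 with the copy over the 8 libraries. These rows share their coding sequence, so that correlation does not separate them.

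Rps15a-ps5 had 91.1 FPKM with siKLF4-siFN, 89.6 with siFN, 96.9 with siKLF4 and 109 with siNT in TCM, and 114 with siKLF4-siFN, 107 with siFN, 53.7 with siKLF4 and 67.7 with siNT in SFM. The interaction was -1.05 ± 0.24 (SE; limma adjusted p = 0.0482), beside -0.89 ± 0.23 (SE; limma adjusted p = 0.0615) for Rps15a. In the opposite direction the smallest p-values were far from the threshold, for Rpsa-ps5 (0.60 ± 0.34), Rpl7a-ps7 (0.20 ± 0.22) and Rpl7a-ps10 (0.23 ± 0.27).

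**Figure D3:**
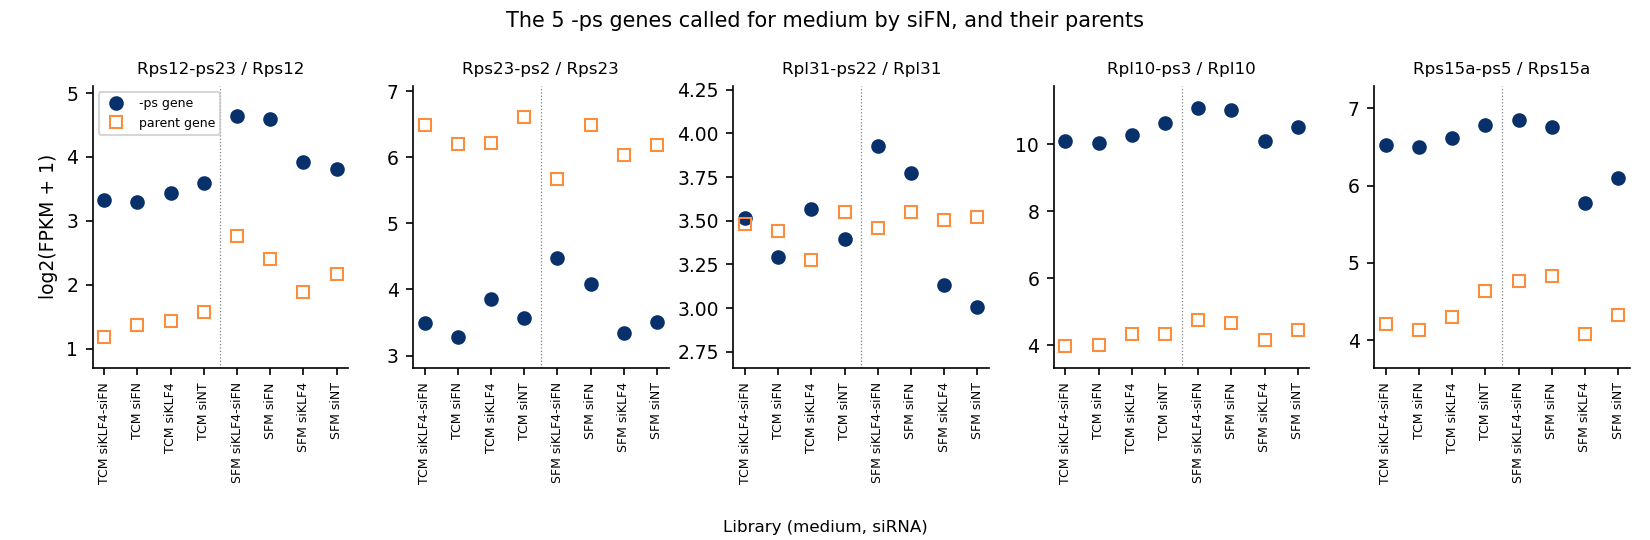
Values of log2(FPKM + 1) in each of the 8 libraries (1 point per library, TCM left of the dotted line, SFM right) for the 5 members called for the medium by siFN interaction (filled circles) and for their parents (open squares), each panel on its own scale. In SFM both siFN libraries lie above both others for each of the 5 members, as 2169 and 2071 FPKM against 1090.25 and 1475 FPKM for Rpl10-ps3.

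The calls sat close to the threshold and depended on single libraries, as did those over all genes. Leaving out 1 library at a time gave between 0 and 19 called members. Without TCM siKLF4-siFN, TCM siFN, SFM siKLF4-siFN, SFM siKLF4 or SFM siNT, 0 members and 0 of all 6917 genes were called. Without TCM siNT it was 0 members and 51 of 6917 genes, and without TCM siKLF4 3 members and 553 genes. Without SFM siFN it was 19 members and 2065 of 6917 genes. A pseudocount of 0.1 in place of 1 left 0 members and 0 of all genes called. When FPKM was summed over each parent and all rows named as its copies, an alternative added after seeing the data, 1 of 50 families was called, Rpl10, at -1.12 ± 0.25 (SE; limma adjusted p = 0.0458), against 7.98% of all rows tested. In that sum 45 of the 50 families had a negative estimate, with a median of -0.46 against -0.06 over all rows tested. At an unadjusted p of 0.05 in limma, 18 of the 50 differed. Shares of all rows for these counts were not computed. In the fit of single genes, 54.4% of all genes were negative and 33.6% were under that unadjusted p.

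Mitosis genes moved across the same libraries. The mean of the 17 of 26 listed mitosis genes that reached a mean of 1 FPKM, relative to each gene's own mean, came to -1.27 for SFM siKLF4-siFN and -1.24 for SFM siFN on the log2 scale. It was -0.60 for TCM siNT, while the remaining 5 libraries lay at 0.57 to 0.66. The members' median on that scale was 0.37 in SFM siKLF4-siFN, 0.20 in SFM siFN and -0.04 in TCM siNT. The part of the mitosis genes in the members' pattern was not tested. In bulk RNA, fewer cells of one state and less RNA per cell cannot be told apart.

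**Figure D4:**
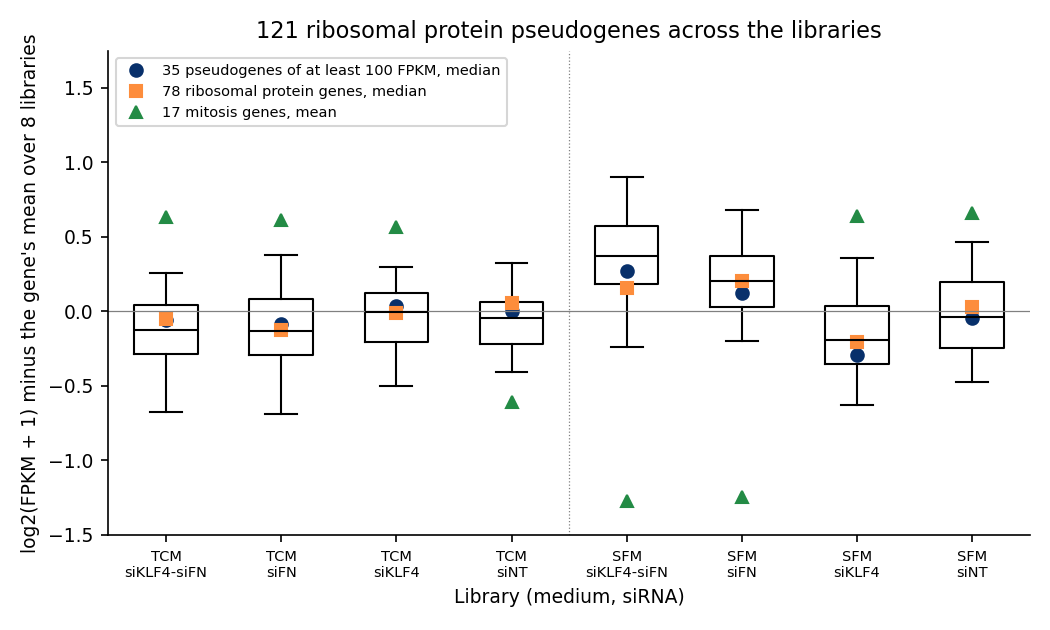
Boxes show, for each library (TCM left of the dotted line, SFM right), log2(FPKM + 1) of the 121 members minus each gene's mean over the 8 libraries, with the median as a line, quartiles as the box and the 5th and 95th percentiles as whiskers; symbols give the median of the 35 members of at least 100 FPKM, the median of 78 ribosomal protein genes and the mean of 17 mitosis genes. The members' median is highest in SFM siKLF4-siFN, at 0.37, where the mitosis genes are lowest, at -1.27.

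**Figure D5:**
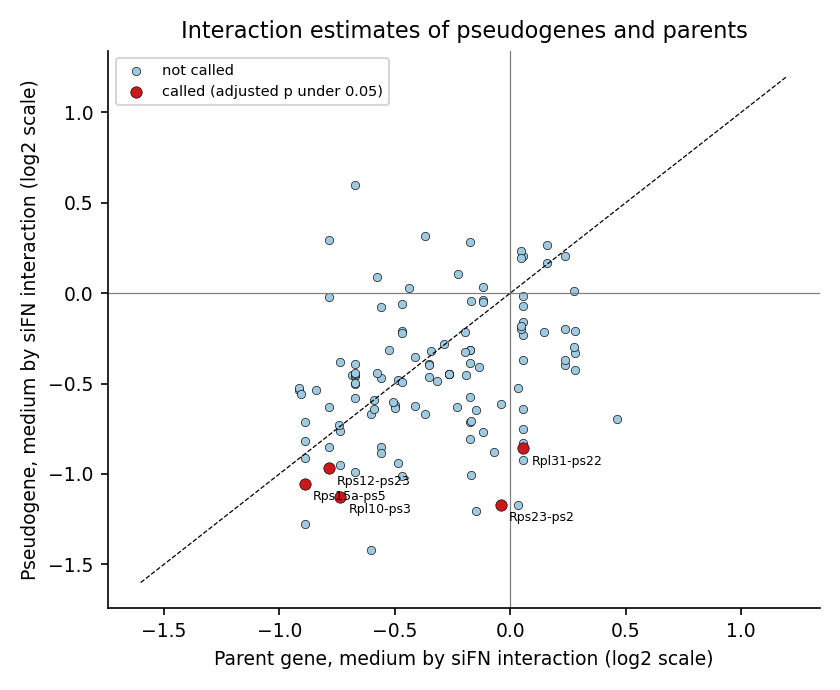
Medium by siFN interaction estimate of each member (vertical) against that of its parent gene (horizontal), both on the log2 scale, with called members in red and the dashed line at equal estimates. Rps12-ps23 and Rps15a-ps5 lie near the line, and Rpl10-ps3 lies somewhat farther below it. Rps23-ps2 (-1.17) and Rpl31-ps22 (-0.86) lie at parent estimates of -0.04 and 0.06.

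The other interactions gave no calls. For medium by siKLF4, 0 of 121 members and 0 of all genes (0%) passed in limma, with 12 members at an unadjusted p of 0.05 against 1.13% of all genes, 0.607% negative and 0.52% positive. With FPKM summed over parent and copies, 0 of 50 families were under that unadjusted p. Over all genes 43.6% were below 0. Rpl10-ps1 had the smallest p at -1.90 ± 0.43 (SE; limma adjusted p = 0.999939), and Rps24-ps2 (-1.28 ± 0.38) was among the 3 smallest on that side. On the other side stood Rpl17-ps8 (0.89 ± 0.27), Rpl30-ps10 (1.34 ± 0.41) and Rps15a-ps4 (1.10 ± 0.41). For siKLF4 by siFN, 0 members and 0 of all genes (0%) passed, with 2 members at an unadjusted p of 0.05 against 0.578% of all genes. The smallest p-values there were those of Rpl27a-ps1 (1.32 ± 0.31), Rpl36a-ps3 (0.92 ± 0.36) and Rps19-ps1 (0.57 ± 0.28), and, on the negative side, Rpl36a-ps1 (-0.64 ± 0.34) and Rpl7a-ps7 (-0.35 ± 0.24) among others. Rpl27a-ps1 reached a mean of 1 FPKM only through SFM siKLF4-siFN, at 3.27 FPKM. That library also raises its estimate here, so the choice of this member favours a positive value.

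Pairs of single libraries that differ in 1 factor have no test. Between TCM and SFM with siKLF4-siFN, 15 members were apart by 1 or more in log2, all lower in TCM, which is 12.4% of members against 10.2% of all genes, 2.7% lower and 7.46% higher. With siFN there were 12 (10 lower in TCM, beside 5.05% of all genes, 1.82% lower). With siKLF4 there were 7, of which 4 higher and 3 lower in TCM (1.32% of all genes, 0.405% higher and 0.911% lower). With siNT there were 6, of which 3 higher and 3 lower (2.43% of all genes, 0.564% higher and 1.86% lower). With siKLF4-siFN against siKLF4 in SFM, 17 members were higher and none lower by that amount, beside 2.6% of all genes higher and 7.27% lower. The same addition of siFN in TCM moved 1 member (0.781% of all genes). For siFN against siNT the count was 3 in TCM (1.86% of all genes) and 2 in SFM (3.66% of all genes).

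For siKLF4-siFN against siFN, 2 members differed by at least 1 in TCM (0.289% of all genes) and 4 in SFM (2.99% of all genes). For siKLF4 against siNT, 1 member did in TCM (1.78% of all genes) and 4 in SFM (0.723% of all genes). SFM siKLF4-siFN stood out among the libraries, since 64 members (52.9%) had their highest value there, as did 31.0% of all genes tested. SFM siKLF4 was the lowest library for 39 members (32.2%), against 11.9% of all genes tested. All 35 members of at least 100 FPKM were below their own mean in SFM siKLF4, and 31 of the 35 were above it in SFM siKLF4-siFN. These members share reads, so they are not separate results, and the matching shares of all genes were not computed. Ribosomal protein genes and the parents moved the same way. Relative to each gene's own mean, their medians were -0.21 and -0.18 in SFM siKLF4, beside -0.19 for all members. In SFM siKLF4-siFN they were 0.16 and 0.16, beside 0.37 for all members.

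High copies varied less than low copies in the median, with a wide spread. The coefficient of variation over the 8 libraries was 17.5% in the median member of at least 100 FPKM and 37.6% in the median member under 5 FPKM. Among the former it ran from 7.82% to 42.1%, the highest being Rpl34-ps1, and it was 30.3% in Rpl10-ps3. The latter rest on few reads, and the part of that in their spread was not tested. The widest range on the log2 scale was that of Rpl10-ps1, which had 6.59 FPKM with siKLF4-siFN, 4.77 with siFN, 4.55 with siKLF4 and 4.33 with siNT in TCM, and 13.7 with siKLF4-siFN, 1.72 with siFN, 4.77 with siKLF4 and 0.634 with siNT in SFM. Its SFM values spanned the whole range and its TCM values hardly any. Rpl30-ps10 came next, with 12.8 to 24.6 FPKM in TCM and 23.4 to 62.2 FPKM in SFM, and then Rps12-ps9, Rpl31-ps10 and Rpl10-ps6 (0.758 to 5.36 FPKM).

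Copy and parent tracked each other only in part. The median Pearson correlation of log2(FPKM + 1) between a member and its parent over the 8 libraries was 0.50, with 20 members over 0.8 and 32 below 0, given as a description of 8 libraries of different conditions. Rps12-ps23 (0.95), Rps12-ps9 (0.92) and Rps12-ps10 (0.90) followed the low Rps12 row, and Rpl3-ps1 (0.90) followed Rpl3. Rpl31-ps8 (-0.33) and Rpl23a-ps3 (-0.24) did not, although most of their sequence is that of the parent. The difference to the parent ranged widely over the libraries in Rpl10-ps1 (2.86 on the log2 scale), Rpl30-ps10 (2.47), Rpl10-ps6 (2.29) and Rpl31-ps10 (2.04).

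The threshold cut through a continuum. Just inside it were Rpl27a-ps1 (1.03 FPKM), Rpl7a-ps10 (1.08), Rpl32-ps (1.13) and Rpl10-ps2 (1.16 FPKM), and just outside Rpl13-ps1 (0.980 FPKM), Rpl34-ps2 (0.976), Rps13-ps5 (0.904), Rpl23a-ps1 (0.793) and Rpl29-ps5 (0.753 FPKM). The mean over libraries can carry a member past the threshold from 1 high library, as in Rpl27a-ps1, which had 3.27 FPKM in SFM siKLF4-siFN and 0.312 to 1.26 FPKM elsewhere.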

How the data were processed

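The deposited table holds FPKM values that the authors made per gene symbol, each library in its own column. STAR 2.4.1d, Partek and the mouse build mm10 are named in the submitters' processing notes. Not given in the sources used here are the annotation, how reads that fit several copies were counted, whether strand was used, and scaling. The depth of the libraries is known only roughly, from the steps of low values.

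From that table log2(FPKM + 1) was computed for the 6917 genes with a mean of at least 1 FPKM, which all 121 members pass by their definition. limma 3.58.1 (R 4.3.3) with a variance trend was fitted over all of them, two-sided, with Benjamini-Hochberg adjustment at 0.05. Medium, siKLF4 and siFN were tested in an additive model (4 residual degrees of freedom), and each interaction with that term added (3 residual degrees of freedom). Standard errors rest on libraries of different conditions, which stand in for replicates. The script was checked on simulated data.

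Members were matched by symbol to GENCODE M21 and aligned to the parent's coding sequence, with free end gaps (Biopython 1.88: match 1, mismatch -2, gap opening -4, extension -1), an alignment having to span 50% of it. The plan named a local alignment to the longest transcript, which drops differences at the ends and takes in untranslated sequence. Windows of 50 bases were looked up, on both strands, in all annotated transcripts, not in the genome, for which no sequence was at hand.

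Members named are those with the 10 highest means, all called, the 3 smallest p in each direction per contrast, the 5 widest ranges over libraries and against the parent, the extremes of window sharing, the 5 on each side of the threshold, and their parents. Copies beside them in a family, and members singled out for their sequence, symbol or annotation, were chosen after their values were seen. The members and gene lists were chosen with earlier results of these data known. Some members and a sequence that this rule takes in are not reported here.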

Additional observations from a re-analysis of the deposited data

Results flagged for a closer look

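Of the members, 5 drew attention because the siFN difference in TCM and that in SFM differed in the interaction test (limma, adjusted p under 0.05), a call that each of the 5 lost in 9 to 11 of 16 other settings. The estimates, siFN difference in TCM minus that in SFM on the log2 scale, were -0.97 for Rps12-ps23, -1.17 for Rps23-ps2, -0.86 for Rpl31-ps22, -1.12 for Rpl10-ps3 and -1.05 for Rps15a-ps5. Over those settings the adjusted p lay between 0.0199 and 0.174 for Rps12-ps23, 0.0196 and 0.159 for Rps23-ps2, 0.0217 and 0.186 for Rpl31-ps22, 0.0246 and 0.209 for Rpl10-ps3, and 0.0238 and 0.188 for Rps15a-ps5. The estimate was negative for each of the 5 in all 16. Every condition has 1 library, so no library was compared with others of its own condition.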

How the results depend on the processing

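Counts of members called stayed at 0 for medium, siKLF4, siFN, medium by siKLF4 and siKLF4 by siFN under all alternatives run. The count of 5 for medium by siFN (496 of all 6917 genes) changed with the setting, and counts over all genes tested follow in brackets. It became 0 with log2(FPKM + 0.1) (0 of 6917) and 3 with log2(FPKM + 0.5) (386 of 6917). With no filter on low values it was 0 (14 of 21556), and with upper-quartile scaling 2 (445 of 6917). With protein-coding genes plus the members it was 14 (946 of 5460). With FPKM summed over parent and copies, 1 of 50 families was called (7.98% of all rows tested). Leaving out 1 library at a time gave 0 to 19 (0 to 2065 of 6917). The count was 6 with a mean of at least 5 FPKM, where 73 members remain (251 of 2598). It was 5 with median-of-ratios scaling (456 of 6917) and without a variance trend (421 of 6917). Apart from the fewer genes tested or libraries used, the cause was not tested. For Rpl7a-ps10, not called, the estimate turned to -0.081 without TCM siKLF4-siFN and was 0.548 without TCM siFN, the range of leaving 1 out. Over the 12 pairs of libraries, 74 differences of members reached 1, with 172 at a pseudocount of 0.1 and 117 at 0.5. Counts over all genes at those other pseudocounts were not computed. The median share of a member's windows found nowhere else was 27.3% at 50 bases, 42.8% at 75 and 53.2% at 100. The median difference of a member to its parent kept its sign and size with log2(FPKM + 0.1). Of the other values, 537 for single members kept direction and side of the threshold and 50 lost the call. With the 4 matched pairs of libraries as a block, chosen after seeing the data, limma called 0 members for medium, siKLF4 and siFN, with 28, 4 and 8 members at an unadjusted p of 0.05. Of all genes 0 were called in these fits, with 4.99%, 2.6% and 1.11% at an unadjusted p of 0.05. No pairing by replicate number was possible, since each condition has 1 library. Depth limits members near 1 FPKM, at 5.603 to 11.2 reads.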
